A study of Mus musculus with 20 samples.

Results

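Galectins are lectins that bind galactose-containing glycans, and 4 of their genes were followed here in mouse hippocampus together with Lgals3bp, which encodes galectin-3-binding protein. The 5 genes, Lgals1, Lgals3, Lgals3bp, Lgals8 and Lgals9, were taken by symbol from the 24513 genes counted. The data are 20 polyadenylated RNA libraries from the hippocampus of male C57BL/6J mice aged 9 months, 5 libraries for each of 4 genotypes. PS19/C3aR KO mice carry the PS19 transgene together with the C3aR KO genotype, PS19 mice carry the transgene alone, C3aR KO mice carry the knockout genotype alone, and WT mice carry neither. The PS19 transgene expresses mutant human tau, a microtubule protein that aggregates in neurons, from the promoter of the mouse prion gene. C3ar1 encodes C3aR, which cells use to sense the complement fragment C3a. The labels do not name the knockout allele and do not say that each library is a separate animal, so p-values measure only the spread among these libraries, part of which may be technical.

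Galectins are made in the cytosol without a signal peptide and leave cells by an unconventional route, after which they crosslink glycoproteins on cell surfaces and in the matrix. Inside cells, galectin-3, galectin-8 and galectin-9 bind the luminal glycans that become exposed when an endosome or lysosome breaks, and help direct its repair or its removal by autophagy. Galectin-3 is known in brain from activated microglia, galectin-1 from astrocytes and vessel-associated cells, and galectin-9 as a product of astrocytes and myeloid cells that interferons induce. Galectin-3-binding protein is not a galectin but a secreted, heavily glycosylated scavenger-receptor protein that galectins bind, and its gene is a known interferon target.

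Promoter sequences are shown because their windows differ in the interferon-linked motifs they hold. RefSeq (GRCm38.p6) listed a promoter for 4 of the 5 genes, the exception being Lgals1, as 250 bases before and 50 after a transcript start. For Lgals9, Lgals3bp and Lgals3 that start is the outermost one RefSeq gives the gene, though a GENCODE transcript of Lgals3 begins 6109 bases further upstream. For Lgals8 it lies 3239 bases inside the RefSeq gene, at the start of a shorter transcript, so the region at the gene's outermost start was not searched. Bases that GENCODE vM21 places inside an exon are left out, except for 30 bases at a match. Also not shown are 117 bases of the Lgals3bp window outside exons and the Lgals8 window, which held no match. Capitals mark matches to the interferon-stimulated response element (ISRE), searched as 2 copies of GAAA with any 2 bases between them, or to the core shared by interferon regulatory factor (IRF) sites, searched as AANNGAAA. Both were searched on both strands, and every ISRE match contains an IRF match.

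Lgals9, chr11:78984947-78985174, minus strand: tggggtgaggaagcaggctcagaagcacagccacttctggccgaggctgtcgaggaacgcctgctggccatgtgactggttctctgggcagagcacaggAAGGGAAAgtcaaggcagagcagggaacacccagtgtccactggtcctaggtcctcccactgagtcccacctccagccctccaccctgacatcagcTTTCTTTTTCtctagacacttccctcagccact
Lgals3bp, chr11:118401960-118401989, minus strand: tcatgtgttttctgaaAATCGAAActaggt
Lgals3, chr14:47373610-47373812, plus strand: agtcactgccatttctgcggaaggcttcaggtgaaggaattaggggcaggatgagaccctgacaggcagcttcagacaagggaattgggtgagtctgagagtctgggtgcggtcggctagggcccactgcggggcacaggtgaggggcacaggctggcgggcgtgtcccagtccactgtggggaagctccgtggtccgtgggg

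The Lgals9 window held an ISRE match from -55 to -46 relative to the listed start, read on the opposite strand, and another from 16 to 25 past the start. It also held a separate IRF match from -151 to -144. The Lgals3bp window held 1 IRF match, from -14 to -7, which lies inside the first exon of a longer GENCODE transcript. The Lgals3 window and the internal Lgals8 window held neither motif. Among all 32851 RefSeq windows of 300 bases, 3.44% held the ISRE letters and 23.9% the IRF letters, so an IRF match is common. A STAT site (GAS, TTCNNNGAA, in 8.30% of windows) and an AP-1 site (TGANTCA, in 7.81%) were found in none of the 4 windows. These are matches of letters, and no binding was measured.

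Each library held 33885850 to 47828111 gene counts, which gave log2 fold changes of PS19 minus WT a median standard error of 0.0973. Markers of hippocampal neurons were detected in all groups, and the 8 of them summed to 521 to 874 counts per 1000000 gene counts (CPM). Prnp, whose promoter and noncoding exons drive the transgene, had 1927 ± 75.6 CPM in PS19/C3aR KO, 1910 ± 61.0 CPM in PS19, 851 ± 27.4 CPM in C3aR KO and 863 ± 39.1 CPM in WT (SD, n = 5 each). C3ar1 went against the knockout label: it had 17.2 ± 1.36 CPM in PS19/C3aR KO, 10.5 ± 3.58 CPM in PS19, 16.0 ± 1.57 CPM in C3aR KO and 2.02 ± 0.266 CPM in WT. C3aR KO and PS19/C3aR KO therefore mean the libraries labelled so throughout, and any direction drawn from them rests on those labels. Choroid plexus markers varied from 24.4 to 4607 CPM in sum over libraries, the share of the ribosomal RNA precursor Rn45s varied from 0.873 to 4.48%, and 7 monocyte and neutrophil markers summed to 51.9 CPM in PS19 library 3, against 4.48 CPM or less in every other library.

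All 5 genes rose in PS19 against WT hippocampus, by 1.20-fold for Lgals8 to 4.22-fold for Lgals3. By edgeR's quasi-likelihood test, 5 of 5 were called higher at a Benjamini-Hochberg adjusted p under 0.05, where 7.50% of the 16657 genes tested were called higher and 10.8% in either direction. The median log2 fold change of the 5 genes was 1.08, against -0.01 over all genes tested. No gene of the 5 was called in C3aR KO minus WT, in PS19/C3aR KO minus PS19 or in the interaction.

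**Figure D1:**
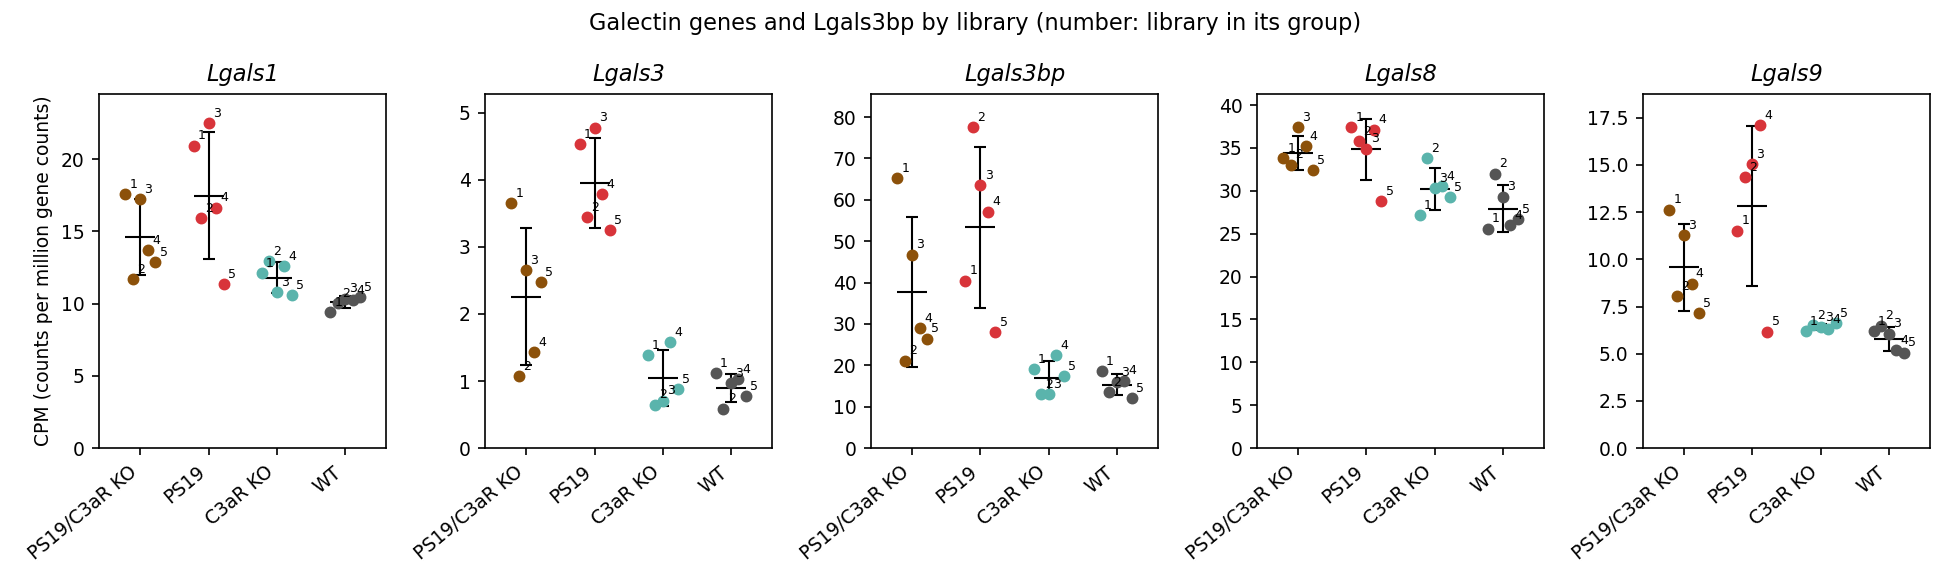
CPM of each gene (vertical axis, from 0) in the 20 libraries by genotype, numbered by library within its group. Horizontal ticks and bars are the mean and SD of 5 libraries. Lgals3 in PS19 lies between 3.25 and 4.78 CPM, above all C3aR KO and WT libraries, while Lgals9 in PS19 library 5 lies at 6.17 CPM among the WT libraries.

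Lgals3 encodes galectin-3, which has a glycan-binding domain joined to a repetitive tail through which it forms oligomers. The gene is at 47367751 to 47386160 on chromosome 14, plus strand (GENCODE vM21, GRCm38, used for all gene positions). It had 3.65, 1.08, 2.66, 1.44 and 2.47 CPM in PS19/C3aR KO libraries 1 to 5. The PS19 libraries had 4.53, 3.44, 4.78, 3.79 and 3.25 CPM, against 1.39, 0.649, 0.708, 1.58 and 0.878 CPM in C3aR KO and 1.12, 0.588, 0.972, 1.02 and 0.779 CPM in WT. Every PS19 library was above every C3aR KO and WT library, whereas the PS19/C3aR KO libraries spread from the WT level at library 2 to the PS19 level at library 1. The counts behind these values were low, 24 to 195 per library. C3aR KO libraries 1 and 4, the highest of their group, had choroid plexus marker sums of 2810 and 3319 CPM. WT library 1, the highest of its group, had 2022 CPM. PS19 library 3, the highest in PS19, had 74.1 CPM. With a choroid plexus covariate, Lgals3 was called in PS19 minus WT by edgeR (log2 fold change 1.98, adjusted p = 0.000161).

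The log2 fold change of Lgals3 in PS19 minus WT was 2.08 (SE 0.31, adjusted p = 0.000359), and the gene ranked 69 of 16657 by size. PS19/C3aR KO libraries differed from PS19 libraries by -0.82 (95% interval -1.39 to -0.25), with an unadjusted p of 0.0108 and an adjusted p of 0.191. They differed from C3aR KO libraries by 1.08 (SE 0.30, adjusted p = 0.194). The difference between the transgene's effects with and without the knockout label was -1.001 (interval -1.84 to -0.16), with an adjusted p of 0.9995 over all genes.

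Lgals3bp is at 118392751 to 118402092 on chromosome 11, minus strand. It had 65.3, 21.1, 46.8, 28.9 and 26.4 CPM in PS19/C3aR KO libraries 1 to 5 and 40.5, 77.6, 63.5, 57.1 and 28.1 CPM in PS19. The C3aR KO libraries had 19.2, 13.1, 13.1, 22.4 and 17.4 CPM, and the WT libraries had 18.6, 13.6, 15.9, 16.3 and 12.02 CPM. The PS19 range lay wholly above the ranges of C3aR KO and WT. PS19/C3aR KO library 2, at 21.1 CPM, lay below C3aR KO library 4 but above every WT library.

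The log2 fold change of Lgals3bp was 1.74 in PS19 minus WT (SE 0.29, adjusted p = 0.000856), or 3.34-fold. It was also the 1 gene of the 5 called in PS19/C3aR KO minus WT, with 1.23 (SE 0.29, adjusted p = 0.0436), where 0.588% of genes were called higher and 1.07% in either direction. The call was lost in 13 of the 20 fits that left out 1 library, in which the value ranged from 0.94 to 1.38 and its adjusted p reached 0.125. Between PS19/C3aR KO and C3aR KO libraries the difference was 1.11 (SE 0.29, adjusted p = 0.158).

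Lgals9 encodes galectin-9, a tandem-repeat galectin with a pair of different glycan-binding domains, and is at 78962974 to 78984946 on chromosome 11, minus strand. It had 12.6, 8.05, 11.3, 8.72 and 7.16 CPM in PS19/C3aR KO libraries 1 to 5 and 11.5, 14.3, 15.1, 17.1 and 6.17 CPM in PS19. The C3aR KO libraries had 6.20, 6.51, 6.43, 6.30 and 6.63 CPM, and the WT libraries had 6.19, 6.49, 6.06, 5.17 and 5.05 CPM. The libraries without the transgene were tightly grouped, and all 5 PS19/C3aR KO libraries lay above all C3aR KO and all WT libraries. PS19 library 5 lay within the WT range, and the other 4 PS19 libraries lay well above it.

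The log2 fold change of Lgals9 was 1.08 in PS19 minus WT (SE 0.19, adjusted p = 0.0013), or 2.12-fold. PS19/C3aR KO libraries differed from PS19 libraries by -0.43 (interval -0.80 to -0.05, unadjusted p = 0.0367, adjusted p = 0.306). Without PS19 library 5 this value was -0.59 (SE 0.14, adjusted p = 0.0277), and Lgals9 was then called lower. That fit called 481 genes in this comparison, against 42 with all libraries.

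Lgals1 encodes galectin-1, a small galectin that works as a dimer, and is at 78926725 to 78930465 on chromosome 15, plus strand. It had 17.6, 11.7, 17.2, 13.7 and 12.9 CPM in PS19/C3aR KO libraries 1 to 5 and 20.9, 15.9, 22.5, 16.6 and 11.4 CPM in PS19. The C3aR KO libraries had 12.1, 12.9, 10.8, 12.6 and 10.6 CPM, and the WT libraries had 9.44, 10.01, 10.3, 10.3 and 10.4 CPM. WT varied little, and on this CPM scale every library of both transgenic groups and of C3aR KO was above it.

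The log2 fold change of Lgals1 was 0.73 in PS19 minus WT (SE 0.14, adjusted p = 0.00221), or 1.65-fold. For PS19/C3aR KO libraries it was -0.26 against PS19 (interval -0.53 to 0.01, adjusted p = 0.405) and 0.47 against WT (SE 0.14, adjusted p = 0.105).

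Lgals8 encodes galectin-8, another tandem-repeat galectin, and is at 12439415 to 12464944 on chromosome 13, minus strand. Its exons share 155 bases with the antisense gene Heatr1, and since the strand setting of the counting is not given in the sources used here, reads there cannot be told apart. It had 33.8, 33.1, 37.4, 35.2 and 32.4 CPM in PS19/C3aR KO libraries 1 to 5 and 37.5, 35.8, 34.9, 37.1 and 28.8 CPM in PS19. The C3aR KO libraries had 27.2, 33.8, 30.3, 30.6 and 29.2 CPM, and the WT libraries had 25.6, 32.02, 29.3, 26.0 and 26.7 CPM. All groups lay close together, and PS19 and WT overlapped through PS19 library 5 and WT libraries 2 and 3.

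The log2 fold change of Lgals8 was 0.26 in PS19 minus WT (SE 0.063, adjusted p = 0.0122). For PS19/C3aR KO against PS19 libraries it was -0.02, with a 95% interval of -0.14 to 0.10. The share of Rn45s moved with the genotypes, at 1.03 to 3.03% in PS19/C3aR KO, 0.873 to 3.65% in PS19, 0.923 to 4.34% in C3aR KO and 2.85 to 4.48% in WT. With that share as a covariate, Lgals8 in PS19 minus WT was 0.17 (adjusted p = 0.216) and Lgals1 was 0.62 (adjusted p = 0.0611), and neither was called, while Lgals3, Lgals3bp and Lgals9 were. That fit called 431 genes, against 1803 without the covariate.

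**Figure D2:**
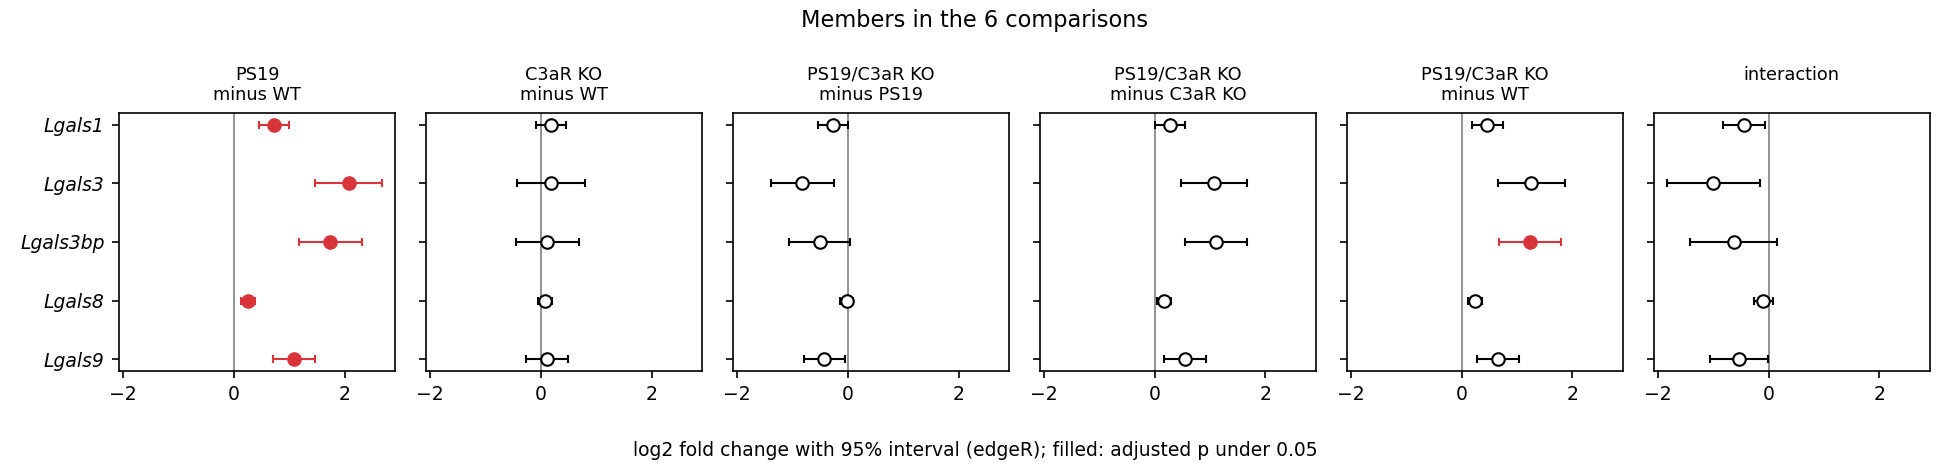
Log2 fold changes (horizontal axis) with 95% intervals from edgeR for each gene in the 6 comparisons, filled where the adjusted p was under 0.05. All 5 points are filled in PS19 minus WT, and Lgals3bp alone is filled in PS19/C3aR KO minus WT.

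Ranges that did not overlap gave a second view of the same libraries, here on log2 CPM scaled between libraries by TMM. In PS19 minus WT, Lgals1, Lgals3 and Lgals3bp were higher in every PS19 library than in any WT library, as were 5.93% of genes tested. PS19/C3aR KO libraries lay wholly above WT for Lgals1, Lgals3bp, Lgals8 and Lgals9, as they did for 2.06% of genes, and wholly above C3aR KO for Lgals9 only, as for 1.30% of genes. C3aR KO lay wholly above WT for 0 of 5, against 0.702% of genes, and PS19/C3aR KO wholly below PS19 for 0 of 5, against 1.58% of genes. Without that scaling, Lgals1 did lie wholly above WT in C3aR KO, with a lowest value of 10.58 CPM against a highest of 10.43 CPM. Comparisons that share a group, such as those with PS19 or WT libraries, are not independent of each other.

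The knockout label without the transgene moved none of the 5 genes past the threshold. In C3aR KO minus WT the log2 fold changes ran from 0.07 for Lgals8 to 0.19 for Lgals1, with adjusted p from 0.895 to 0.973. The count of called genes was 0 of 5 by edgeR, by DESeq2 and by limma-voom, where these tools called 0.0600%, 0.348% and 0.0720% of all genes. At an unadjusted p under 0.05 by edgeR it was 0 of 5, against 6.00% of all genes. The widest interval, that of Lgals3, ran from -0.44 to 0.80.

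Among transgenic libraries, the 5 genes were lower on average in PS19/C3aR KO than in PS19, and none of these differences passed the test. The log2 fold changes ran from -0.82 for Lgals3 to -0.02 for Lgals8, with a median of -0.43, against 0.00 over all genes tested. By edgeR 0 of 5 were called, against 0.252% of all genes, and 2, Lgals3 and Lgals9, had an unadjusted p under 0.05, against 14.5% of all genes. DESeq2 and limma-voom each called 0 as well, and called 2.66% and 0.534% of all genes. In the interaction 0 of 5 were called by edgeR, DESeq2 and limma-voom, which called 0.0120%, 0.0180% and 0.00600% of all genes, and 2 had an unadjusted p under 0.05 by edgeR, against 4.15%.

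How many of the 5 genes were called in PS19/C3aR KO against the groups without the transgene differed between tools. Set against C3aR KO, the PS19/C3aR KO libraries gave 0 of 5 calls by edgeR, where 0.00600% of all genes were called, and 4 at an unadjusted p under 0.05, against 9.71%. Limma-voom called 0 of 5 and 0.00600% of all genes, and DESeq2 called 1, Lgals3bp (1.11, adjusted p = 0.0132), and 0.949% of all genes. Set against WT, all 5 genes had an unadjusted p under 0.05 in PS19/C3aR KO, against 15.2% of all genes. There DESeq2 called 5, against 3.56% of all genes, and limma-voom called 0, against 0.594%.

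The 5 genes differed from each other in how far they moved with the transgene. Log2 ratios of 2 genes within a library were compared between groups by a two-sided exact permutation test over all splits of 5 against 5, whose smallest p is 0.00794, with adjustment over the 10 pairs. In PS19 minus WT, 8 of the 10 pairs passed, with adjusted p from 0.0159 to 0.0198. Lgals3 moved further than Lgals8 by 1.78, than Lgals1 by 1.35 and than Lgals9 by 1.03 on the log2 scale, in each case with no overlap between the groups. Lgals3bp moved further than Lgals8 by 1.41, than Lgals1 by 0.98 and than Lgals9 by 0.66.

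The remaining differences were smaller. Lgals9 moved further than Lgals8 by 0.75 and Lgals1 further than Lgals8 by 0.43, and both pairs passed. The ratio of Lgals3 to Lgals3bp differed by 0.37 (adjusted p = 0.198), or by 0.57 (adjusted p = 0.0198) without PS19 library 2, which had the highest Lgals3bp. The ratio of Lgals1 to Lgals9 differed by -0.32 (adjusted p = 0.198). With the knockout label in both groups, PS19/C3aR KO minus C3aR KO, 0 of the 10 pairs passed after adjustment, the lowest adjusted p being 0.0794, and 4 had an unadjusted p under 0.05. Leaving out PS19/C3aR KO library 2 or library 5 let 2 pairs pass, each time including Lgals1 against Lgals3bp.

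Microglial genes moved with the galectins. All 12 general microglia markers were called higher in PS19 than in WT by edgeR, as were 7.50% of all genes. Their median log2 fold change was 1.39. Their summed level was 409 to 770 CPM in PS19/C3aR KO, 490 to 1120 CPM in PS19, 333 to 377 CPM in C3aR KO and 328 to 370 CPM in WT, with no marker at 0 in any group. All 10 disease-associated and all 8 homeostatic microglia genes had positive values, with medians of 1.58 and 0.61. Of these, 9 and 7 were called higher. All 10 reactive astrocyte genes rose too, with a median of 1.75 and sums of 812 to 2331 CPM in PS19/C3aR KO, 1065 to 3366 CPM in PS19, 404 to 604 CPM in C3aR KO and 365 to 607 CPM in WT. In the fit that carried the Rn45s share, 11 general, 8 disease-associated and 3 homeostatic microglia genes and 5 reactive astrocyte genes were called. That fit called 431 genes in all. In whole tissue, more cells of a type and more RNA per cell cannot be told apart, and the part of these cells in the galectin changes was not tested beyond the ratios that follow.

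Against the mean log2 CPM of the 12 microglia markers, the genes lay on both sides. In PS19 minus WT, Lgals3 moved further than the markers by 0.66 (exact permutation test adjusted over 5 genes, p = 0.0265). By the same exact test Lgals8 differed from them by -1.12 (p = 0.0198), Lgals1 by -0.69 (p = 0.0198) and Lgals9 by -0.37 (p = 0.0397), and so moved less. Lgals3bp differed by 0.29 and did not pass the exact test (p = 0.198). Lgals9 lost its call without WT library 1, 2 or 3 or PS19 library 1, 3 or 5, each left out alone (exact p from 0.0595 to 0.0694). Lgals3 lost its call without WT library 2 or 3 or PS19 library 5 (exact p from 0.0529 to 0.0694), and Lgals3bp passed without PS19 library 1 (0.42, exact p = 0.0496). PS19 library 5, with 4081 CPM of choroid plexus markers, had the highest Lgals3 ratio of its group, -2.70. PS19 library 1, with 4607 CPM, had -3.36, and PS19 library 3, with 74.1 CPM, had -3.385. The part of choroid plexus content in this ratio was not tested.

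The direction of some of these ratios depended on which microglial genes were used. By exact permutation tests against homeostatic genes, Lgals1 differed by 0.02, Lgals9 by 0.34 and Lgals3bp by 0.999 (p = 0.0132). By exact tests against disease-associated genes, Lgals3 differed by -0.19 (p = 0.476) and Lgals3bp by -0.55 (p = 0.0992). Between PS19/C3aR KO and C3aR KO, Lgals8 differed from the general markers by -0.49 and Lgals1 by -0.38 (exact permutation p = 0.0397 for each), and both calls were lost when any 1 C3aR KO library was left out. Without PS19/C3aR KO library 1, 2, 3 or 4, the call of Lgals1 was lost.

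**Figure D3:**
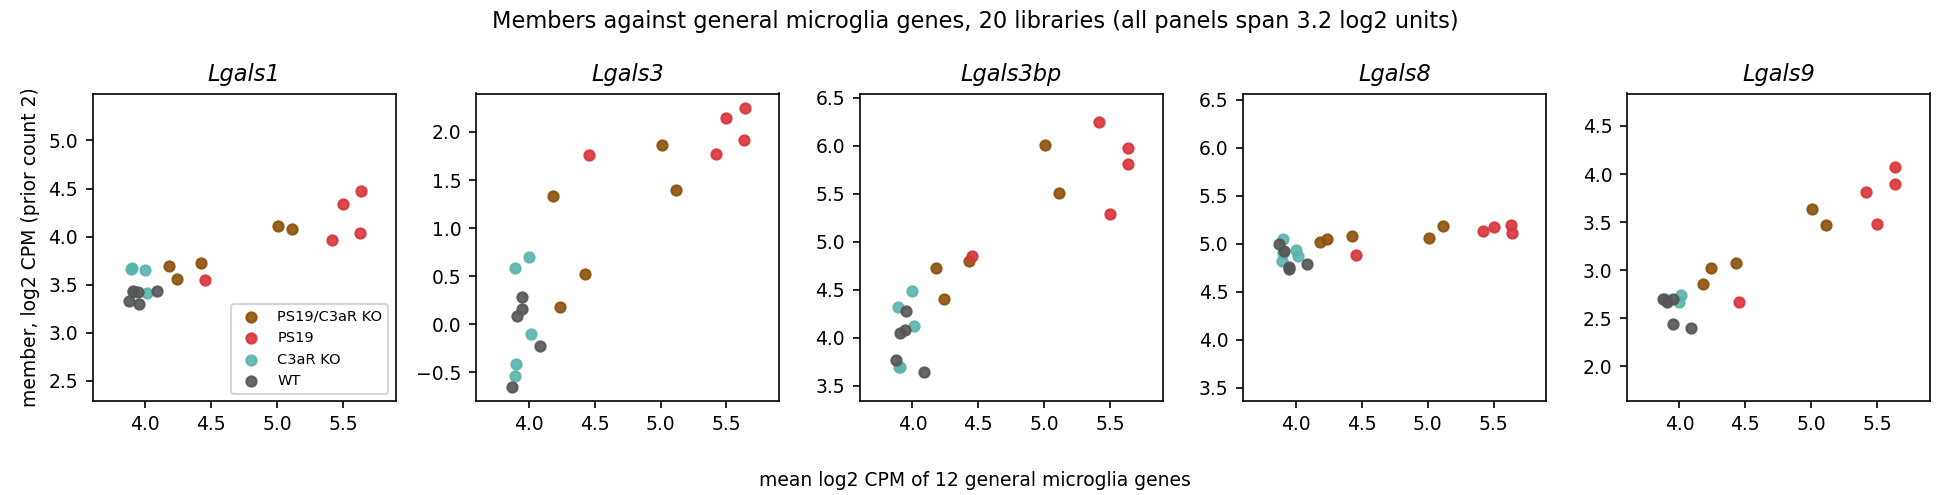
Log2 CPM of each gene (vertical axis, prior count 2, every panel spanning the same height) against the mean log2 CPM of 12 general microglia genes (horizontal axis) in 20 libraries coloured by genotype. PS19 library 5, at 4.45 on the horizontal axis, lies apart from the other 4 PS19 libraries at 5.42 to 5.64.

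Some single libraries moved in step across genes, and others did not. PS19 library 5 was the lowest of its group for all 5 genes and for the microglia markers. PS19/C3aR KO libraries 1 and 3 were the highest of their group for Lgals1, Lgals3, Lgals3bp and Lgals9, and had microglia means of 5.01 and 5.11, against 4.18 to 4.43 in the other 3 libraries of that group. Library 5 of that group had its lowest microglia mean, Lgals8 and Lgals9, yet had 2.47 CPM of Lgals3, against 1.08 CPM in library 2. PS19 library 1 was above libraries 2 and 4 for Lgals1 and Lgals3, but below both for Lgals3bp and Lgals9. PS19 library 3, with its high monocyte and neutrophil markers, had the highest Lgals1 and Lgals3 of all 20 libraries. Without it, the PS19 minus WT values were 0.62 for Lgals1 (adjusted p = 0.00875) and 2.001 for Lgals3 (adjusted p = 0.0015), and all 5 genes were still called.

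All 14 listed interferon response genes rose, and their sum varied between the transgenic libraries, as did Lgals3bp and Lgals9. Of these 14 genes 13 were called higher in PS19 minus WT by edgeR, as were 7.50% of all genes. The median of the 14 was 1.53, against -0.01 over all genes. The count of calls was 10 without PS19 library 3, where 1190 genes were called, and 7 by limma-voom, which called 10.6% of all genes. It was 1 in the fit that carried the Rn45s share, which called 431 genes. Those with the lowest p were Ifitm3, a membrane protein that blocks virus entry (1.47, SE 0.25), Ifit3, an antiviral RNA-response protein (2.23, SE 0.44), Irf7, a transcription factor that amplifies interferon production (2.12, SE 0.46), and Ddx58, which encodes the RNA sensor RIG-I (1.03, SE 0.23). The 14 genes summed to 109 to 287 CPM in PS19/C3aR KO, 108 to 313 CPM in PS19, 100 to 106 CPM in C3aR KO and 91.4 to 98.1 CPM in WT. The library with the highest sum in each transgenic group, PS19/C3aR KO library 1 and PS19 library 2, was also the one with the highest Lgals3bp. Lgals9 ranked the PS19/C3aR KO libraries in the same order as the sum, but in PS19 it was highest in library 4. Lgals1 and Lgals3 were also highest in PS19/C3aR KO library 1, but in PS19 in library 3. Set against WT, PS19/C3aR KO libraries gave 0 of the 14 by edgeR, against 1.07% of all genes. At an unadjusted p under 0.05 there were 13, against 15.2%. DESeq2 called 8, against 3.56% of all genes, and limma-voom 0, against 0.594%. Set against PS19, edgeR, DESeq2 and limma-voom each called 0, against 0.252%, 2.66% and 0.534% of all genes. There 0 had an unadjusted p under 0.05 by edgeR, against 14.5%.

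The genes whose pattern over the 20 libraries was most like each galectin were found among 12819 genes, as the smallest root mean square difference in log2 CPM after subtracting the WT mean. Lgals3bp, with a root mean square deviation of 1.10 from WT, was closest to Ifitm3 (0.261), the transcription factor gene Runx1 (0.286) and Bst2, an interferon-induced protein that tethers viruses (0.303). Lgals9, with a deviation of 0.667, was closest to Parp9 (0.148), Birc3 (0.161) and the Fc receptor gene Fcgr1 (0.162). Lgals3, with a deviation of 1.25, was closest to Fam46c, the complement gene C4b and the filamin gene Flnc, at 0.326 to 0.412. These differences grow with a gene's own deviation, so they do not rank the galectins against each other. Lgals1, with a deviation of 0.470, was closest to the lysosomal genes Npc2 (0.152), Ctsl (0.156) and Hexa (0.156), which encode a cholesterol transfer protein, cathepsin L and a hexosaminidase subunit.

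Being chosen for likeness over the same libraries, such genes have PS19 minus WT values near those of their galectin by construction: the log2 fold changes were 0.77 for Npc2, 0.59 for Ctsl and 0.75 for Hexa, beside 0.73 for Lgals1. Lgals8, with a deviation of 0.201, was closest to Mpc1, Gnai2 and Tmpo at 0.0907 to 0.0928, of which Gnai2 alone was called (0.36). Likeness here describes these libraries, which share their tissue and its cell makeup.

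**Figure D4:**
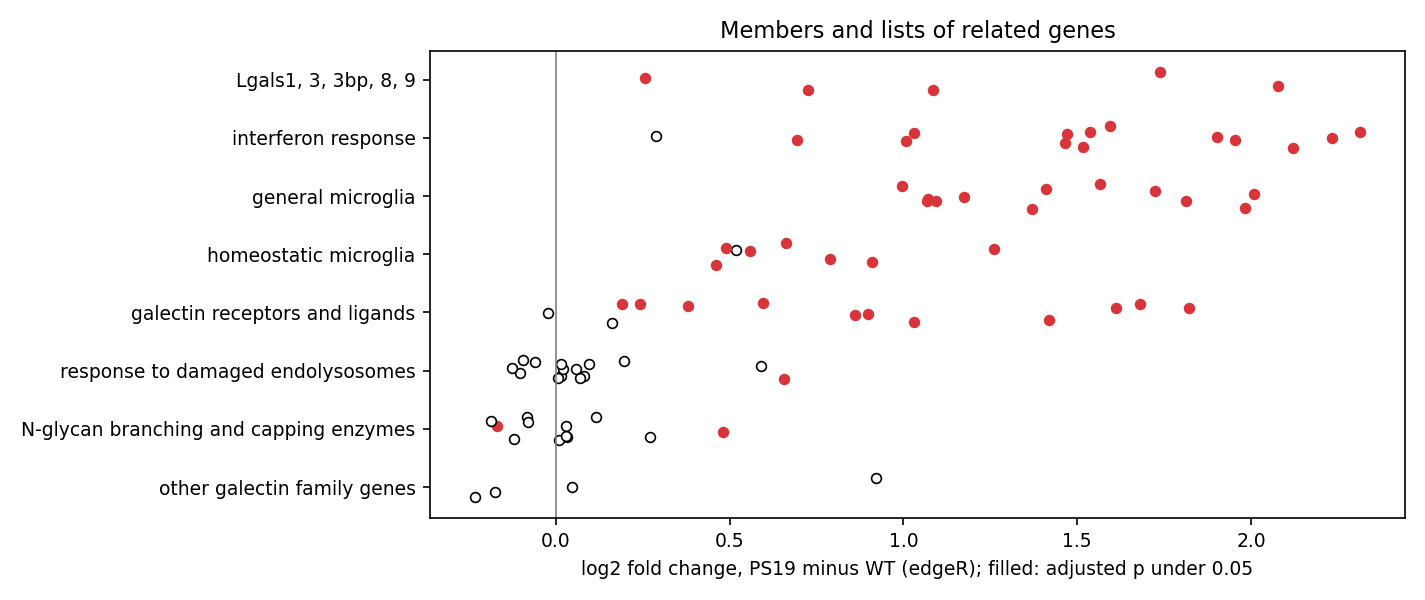
Log2 fold changes in PS19 minus WT (horizontal axis) of the 5 genes and of lists of related genes, filled where the adjusted p was under 0.05. The interferon, general and homeostatic microglia and receptor lists lie to the right, with medians of 0.61 to 1.53, and the glycan enzyme and endolysosome lists lie near 0, with medians of 0.02.

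Glycoproteins that galectins bind, among them receptors on microglia, rose with the transgene. The 13 listed receptors and ligands had a median of 0.86 in PS19 minus WT. Of them 11 were called higher, as were 7.50% of all genes. The count was 9 without PS19 library 3 and 7 in the fit that carried the Rn45s share, which called 1190 and 431 genes in all. Those with the lowest p were Trem2, a lipid-sensing microglial receptor that galectin-3 is reported to bind (1.68, SE 0.24), Ptprc, the leukocyte phosphatase CD45 bound by galectin-1 (1.82, SE 0.27), and the lysosomal membrane glycoproteins Lamp2 (0.60, SE 0.093) and Lamp1 (0.38, SE 0.061). Havcr2, which encodes the galectin-9 receptor TIM-3, had 1.42 (SE 0.23). Mertk (0.16) and Nrp1 (-0.02) were not called. Between PS19/C3aR KO and PS19 all 13 had negative values, from -0.93 to -0.14. There edgeR called 0, against 0.252% of all genes, and 11 had an unadjusted p under 0.05, against 14.5%. DESeq2 called 4, against 2.66% of all genes, and limma-voom 0, against 0.534%. Without PS19 library 5 edgeR called 5, and 481 genes in all.

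Among the enzymes that build the glycans, 2 of 12 passed the test, against 10.8% of all genes. Of these genes for N-glycan branching and capping, B4galt1, which adds the galactose that galectins recognise, was called higher (0.48, SE 0.15) and Mgat3, whose bisecting sugar limits branching, was called lower (-0.17, SE 0.044). Neither was called without PS19 library 3. The median was 0.02, and Mgat5, the branching enzyme best known for making galectin-3 ligands, had -0.08 (interval -0.27 to 0.11). Of 15 genes of the response to damaged endolysosomes, only Tfeb, the transcription factor for lysosome genes, was called by edgeR (0.66, SE 0.14). The share over all genes was 10.8%. DESeq2 called 3, against 13.7% of all genes, and 5 had an unadjusted p under 0.05 by edgeR, against 24.8%. These counts are near the shares over all genes. Trim16, a partner of galectin-3 in that response, had 0.59 (SE 0.27, adjusted p = 0.173), and the autophagy receptor gene Sqstm1 had 0.01 (SE 0.044).

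Levels per kb of exon allow different genes to be compared roughly, and Lgals3bp and Lgals8 stood in opposite order in PS19 and WT. The lengths are unions of all GENCODE vM21 exons of a gene. The annotation used for counting is not known, so the order between genes is approximate. In PS19 mean levels per kb were 19.4 CPM for Lgals1, 18.7 CPM for Lgals3bp, 9.44 CPM for Lgals8, 6.01 CPM for Lgals9 and 2.13 CPM for Lgals3. The library ranges of Lgals1 and Lgals3bp, of Lgals3bp and Lgals8, and of Lgals8 and Lgals9 overlapped there. In WT the order was Lgals1 with 11.2, Lgals8 with 7.57, Lgals3bp with 5.37, Lgals9 with 2.71 and Lgals3 with 0.482 CPM per kb, and no neighbouring ranges among the 5 genes overlapped. Lgals3, with the largest fold change of the 5, was the least abundant of them in both groups.

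Of the 7 other galectin family genes, 4 were tested, and 0 were called by edgeR, DESeq2 or limma-voom in any comparison, with 1, Lgals2, at an unadjusted p under 0.05 in PS19 minus WT, against 24.8% of all genes. Lgalsl, which encodes a galectin-related protein that lacks glycan binding, had the highest level per kb, 19.2 CPM in PS19 and 17.8 CPM in WT, and its log2 fold change was 0.05 (interval -0.04 to 0.14). Lgals2 had 0.798 ± 0.409 CPM in PS19 and 0.402 ± 0.102 CPM in WT (SD, n = 5 each), with a log2 fold change of 0.92 (SE 0.38, adjusted p = 0.137), and shares 38 exon bases with Cdc42ep1. Lgals12 and Lgals4 had -0.17 (SE 0.39) and -0.23 (SE 0.42). Lgals7, Grifin and Lgals6 were too low to be tested, with at most 7, 12 and 2 counts in a library. Lgals6 is nearly identical to Lgals4, so reads of either may have been set aside or split. It had 0 counts in the PS19 group, which allows up to 0.0154 CPM over the group by counting error only.

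**Figure D5:**
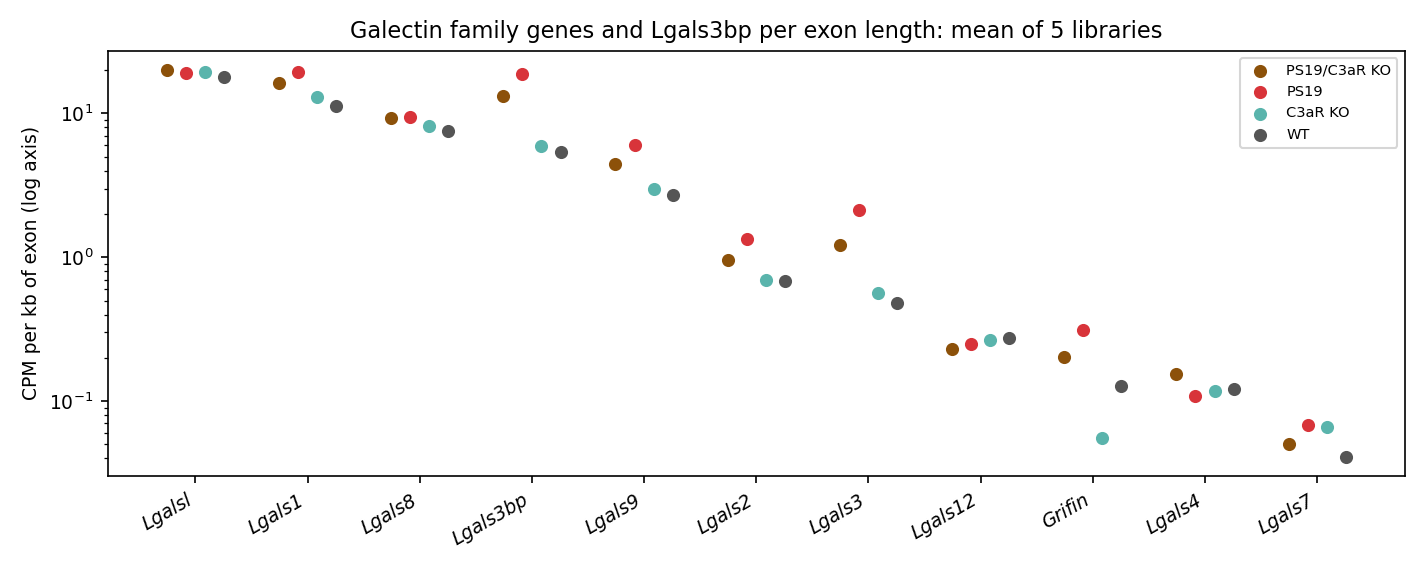
Mean CPM per kb of exon (vertical log axis) over 5 libraries for galectin family genes and Lgals3bp, by genotype. Lgals6 had no GENCODE vM21 entry and is not shown. Lgals3bp in PS19 lies at 18.7 CPM per kb, close to Lgals1 at 19.4 and above its WT level of 5.37.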

How the data were processed

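Per the labels' protocols, read pairs of 76 nt were aligned to mm10 with TopHat 2.0.9, and htseq-count counted reads over the union of each gene's exons. The authors deposited these counts as whole numbers per gene with no normalization. The sources used here do not give the annotation release or strand setting, and DESeq2 is named in the submitters' processing notes without a role. Summary lines that name no gene were left out; pairs that met no exon were 17.4 to 25.4% of those listed. CPM are counts scaled to 1000000 gene counts. Libraries were grouped by title. No 2 libraries of a group agreed within sampling noise (chi-square per degree of freedom 9.00 to 109 over 40 pairs).

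One edgeR 4.0.16 quasi-likelihood fit (R 4.3.3) covered the 20 libraries with genotype as the factor, TMM, and filterByExpr (minimum count 10, minimum total 15), which left 16657 genes. P-values were adjusted over all of them in each of 6 comparisons and called under 0.05. The interaction is PS19/C3aR KO minus C3aR KO, minus PS19 minus WT. DESeq2 1.42.0, limma-voom 3.58.1 and the settings given at the end were alternatives, and the edgeR and permutation tests were tried on simulated data. Intervals of 95% are the estimate ± 1.96 SE. Permutation tests used log2 CPM scaled by TMM with a prior count of 2. The genes, marker lists and tests were chosen with earlier results of these data known. Named beside the 5 genes were up to 4 called genes per list with the lowest p and the 3 most alike genes per galectin whose mean log2 CPM reached 1 and that carry no predicted-gene symbol. Havcr2, Mertk, Nrp1, Mgat5, Trim16 and Sqstm1 were named for their role. Promoters and sites came from RefSeq GRCm38.p6 and gene positions from GENCODE vM21.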

Additional observations from a re-analysis of the deposited data

How the results depend on the processing

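The 5 calls in PS19 minus WT held in every fit that left out 1 library and in every other setting except 1: with the Rn45s share as a covariate 3 of 5 were called. Of 155 member values in that comparison under alternatives, 153 kept direction and call, 2 lost the call and 0 reversed. That covariate also turned 4 values near 0: Lgals8 to -0.00308 and Lgals9 to -0.00792 in C3aR KO minus WT, and Lgals8 to 0.00261 in PS19/C3aR KO minus PS19 and to 0.00569 in the interaction. The cause was not tested.

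The count of 1 in PS19/C3aR KO minus WT was the least stable. The main fit called 179 genes there. It was 0 with limma-voom, with the Rn45s covariate and with only the groups compared in the fit, which called 99, 20 and 43 genes. It was 2 without TMM and with a filter of at least 1 CPM in 5 libraries, which called 276 and 185 genes. A choroid plexus covariate gave 3 and DESeq2 gave 5, with 397 and 592 genes called. Leaving out 1 library gave 0 to 5, with 28 to 395 genes called. In PS19/C3aR KO minus PS19 the count was 0 to 1 when 1 library was left out, with 1 without PS19 library 5, where 481 genes were called. In PS19/C3aR KO minus C3aR KO DESeq2 gave 1, with 158 genes called. Leaving out 1 library moved Lgals3 in C3aR KO minus WT over -0.00738 to 0.32 and Lgals8 in PS19/C3aR KO minus PS19 over -0.0709 to 0.00622.

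The labels give replicate numbers no meaning, so the libraries were not taken as paired. Deviations from group means of same-numbered libraries correlated at -0.273 to 0.550 (median 0.140), with 16 of 30 above 0.1, against a median of -0.0421 and 36 of 120 above 0.1 for different numbers. Of 20 libraries 7 correlated best with their own number. With the replicate block 5 of 5 genes were called in PS19 minus WT and 3 in PS19/C3aR KO minus WT, where 2105 and 305 of all genes were called. With paired sign flips as the block, whose smallest p is 0.0625, 0 pairs of genes and 0 genes relative to microglia markers could pass in either comparison.

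Among ratios in PS19/C3aR KO minus C3aR KO, Lgals3 against Lgals3bp was 0.0139 with a prior count of 0.5 and -0.17 to 0.056 when 1 library was left out, where the count of passing pairs was 0 to 2. Relative to general microglia markers, 2 to 4 genes passed in PS19 minus WT and 0 to 2 in PS19/C3aR KO minus C3aR KO when 1 library was left out. Relative to homeostatic genes, Lgals1 was 0.0187 and Lgals9 0.337 in PS19 minus WT, and Lgals9 0.186 in PS19/C3aR KO minus C3aR KO, where 0 passed. Relative to disease-associated genes, Lgals3 was -0.185 and Lgals3bp -0.554 in PS19 minus WT, and -0.165 and -0.152 in PS19/C3aR KO minus C3aR KO. Depth limits Lgals3 most, with as few as 24 counts in a library, and Lgals2, Lgals4 and Lgals12 more still.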

Other observations

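Markers of other cell types were counted in PS19 minus WT hippocampus, where edgeR called 10.8% of all genes and 24.8% had an unadjusted p under 0.05; the lists were not tested against each other. By edgeR, DESeq2 and limma-voom, 0 of 7 endothelial markers and 0 of 7 fibroblast and meningeal markers were called, also with 0 at an unadjusted p under 0.05. Counts of 1 in the next lists are near the share over all genes. Of 7 border-associated macrophage markers, edgeR called Ms4a7 (log2 fold change 1.25, SE 0.38), while limma-voom called 0, as did edgeR without PS19 library 3. Among 5 tested monocyte and neutrophil markers, edgeR called Ngp (3.998, SE 1.24), and 0 were called without PS19 library 3, whose 7 markers summed to 51.9 CPM. Of 8 general astrocyte markers 6 were called higher and of 7 oligodendrocyte markers 2, while 2 of 8 neuronal markers were called lower. With the Rn45s share as a term, 1, 1 and 0 of these were called. No sample group with 5 libraries held an outlying library for any of the 5 genes by Dixon's test at 95%, over the 20 groups checked.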
